A study of Zea mays with 18 samples.

Results

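In the third leaf of heat-treated maize seedlings, 41 of the 39471 genes counted were at or near 0 in every library although every control library held reads of them. They were chosen from the measured values. A gene was taken when it had at most 3 counts in each of the 3 heat libraries and at least 15 counts in each of the 3 control libraries. Of the 17121 genes that met the control condition, 0.239% also met the heat condition. The genes are called silenced by heat below, which stands for this rule and says nothing about how their transcripts were lost. Since the difference between heat and control chose them, that difference is described and not tested.

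The plants were seedlings of An'nong 591, an F1 hybrid of the lines CB25 (mother) and CM1 (father). Heat-treated seedlings (F1) spent 2 d at 42 °C by day and 35 °C by night, and control seedlings (CF1) stayed at 28 °C by day and 23 °C by night. All were raised in a greenhouse under 16 h of light and 8 h of dark, and the third leaf was taken for RNA sequencing in 3 biological replicates per group. Both groups carry the same genotype, only 1 harvest after the treatment was used here, and no source states how many plants went into a replicate.

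A transcript level in RNA sequencing is a balance of synthesis and decay. In plants at high temperature, the synthesis of heat shock proteins is known to go up while many genes of growth, photosynthesis and metabolism are turned down. A leaf is also a mixture of mesophyll, bundle sheath, epidermal and vascular cells, so fewer cells of a type and less RNA per cell cannot be told apart in these data.

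Between 14325790 and 14643512 counts per F1 library fell on genes, against 12266758 to 14246363 per CF1 library, so the libraries with the low counts were the deeper ones. Reads were spread over 26350 to 26718 genes in F1 libraries and 24325 to 24768 in CF1 libraries. The trimmed mean of M-values (TMM), which scales libraries so that most genes do not differ, gave factors of 1.30 to 1.33 for F1 and 0.734 to 0.770 for CF1. With it, the ratio of F1 to CF1 library sizes was 1.90, and by totals it was 1.10. The median log2 fold change of all tested genes was 0.05 with TMM and 0.85 with totals, and values below are with TMM unless stated. The labelled tissue was checked by its markers. The mesophyll genes pep1 and pdk1 together had 4215 to 5124 FPKM (counts per exonic length and per library total) in F1, against 14970 to 17000 FPKM in CF1, and the bundle sheath genes ssu1 and me3 had 2117 to 2824 FPKM in F1, against 6110 to 6885 FPKM in CF1. The wax genes gl1, glossy2 and gl8b, read as epidermal markers, summed to 76.9 to 80.3 FPKM in F1, against 58.3 to 75.1 FPKM in CF1. This sum hides opposite changes. Gl1 had 13.2 to 15.5 FPKM in F1, against 30.2 to 44.9 FPKM in CF1. Gl8b had 23.2 to 24.0 FPKM in F1, against 2.87 to 4.73 FPKM in CF1. Glossy2 had 39.0 to 42.4 FPKM in F1, against 21.7 to 26.4 FPKM in CF1, and was not called with TMM. Of the markers for dividing cells, the histone gene his1 had 5.22 to 9.17 FPKM in F1, against 112 to 119 FPKM in CF1, while the cyclin genes cyc1 and cyc3 were at or near 0 in both groups. The root marker rtcs was at 0 in both groups, and the root hair gene rth3 had 23.7 to 26.7 FPKM in F1, against 3.98 to 9.52 FPKM in CF1. Of the marker symbols listed, 2 of 3 were matched for mesophyll, 2 of 4 for bundle sheath, 3 of 6 for epidermis, 2 of 3 for root and 0 of 3 for guard cells. The part of changes in these cell types in the counts of the 41 genes was not tested.

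Added over the 41 genes, the F1 libraries held 35, 31 and 38 counts, against 3604, 2778 and 3527 counts in the CF1 libraries. In CPM (counts scaled by the library total on genes) this was 2.40, 2.12 and 2.65 in F1, against 253, 210.3 and 287.5 in CF1. The pooled level of CF1 over F1 was 181 (exact 95% interval 149.6 to 222.2) with TMM scaling and 104 (86.1 to 128) by library totals. These intervals, and the others given for ratios below, cover counting error only. They leave out the spread between replicates and the choice of the genes by these same counts. No gene dominated what was left in F1, where the highest sum over the 3 libraries was 8 counts.

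**Figure D1:**
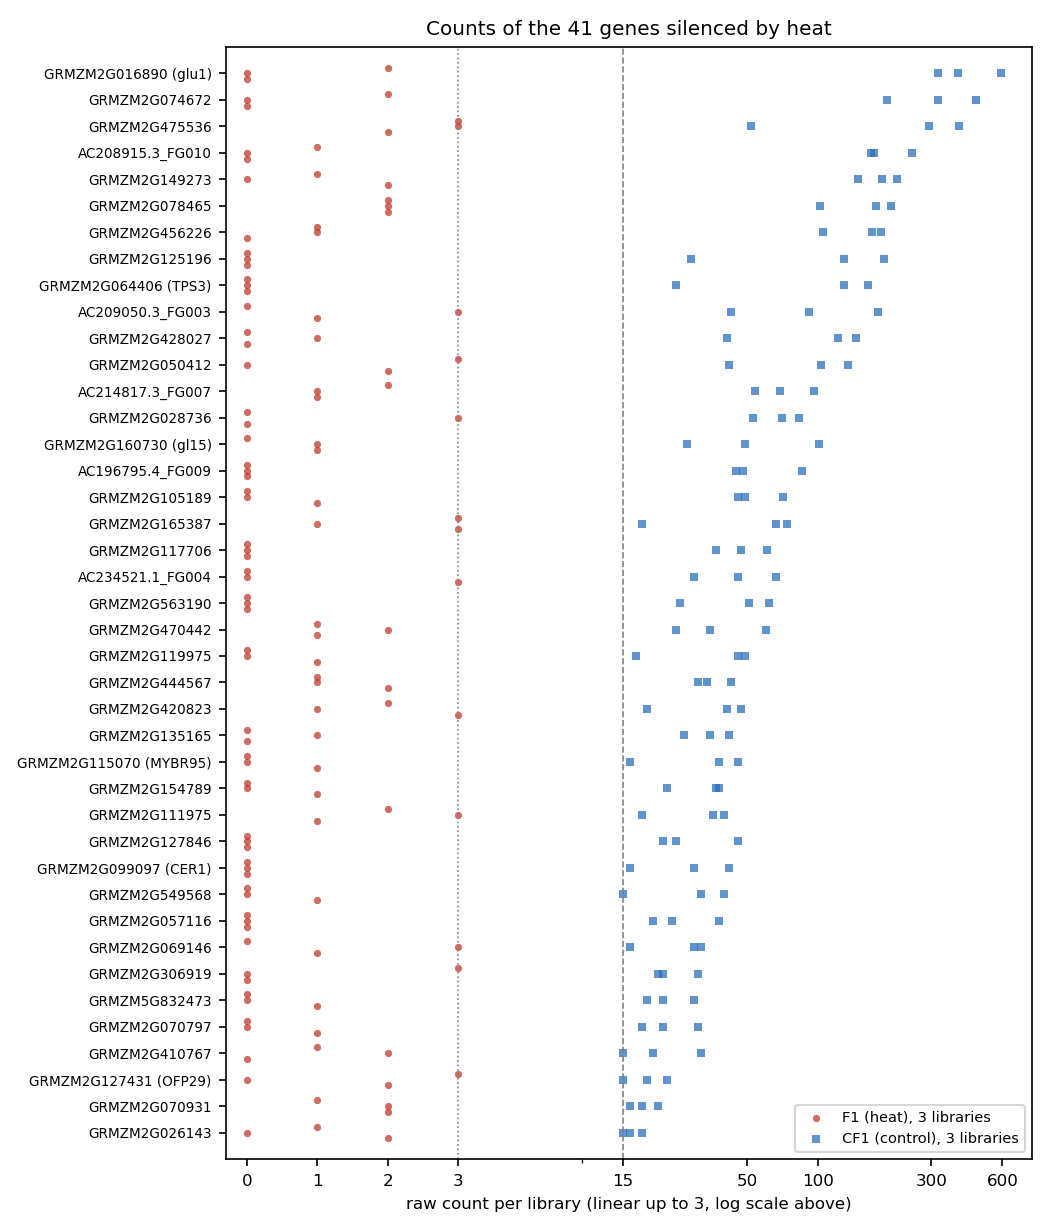
Raw counts of the 41 genes silenced by heat in each library, with F1 (heat) as red circles and CF1 (control) as blue squares. The axis is linear up to 3 counts and logarithmic above, the dotted line marks 3 counts and the dashed line 15 counts, and the 2 groups lie on opposite sides of both lines by the rule that chose the genes.

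In F1, 8 of the 41 genes had 0 counts in all 3 libraries, 20 had 1 to 3 counts in total, and 13 had more than 3. Genes at 0 numbered 22, 24 and 17 in F1 replicates 1, 2 and 3, so most of the genes were read in at least 1 F1 library. In CF1 the mean count per gene was between 16.3 and 434, with a median of 46.3. In FPKM the genes averaged 0 to 0.150 in F1, and 0.627 to 32.5 with a median of 2.65 in CF1. Most were weakly expressed in control leaves, since 30 were under 5 FPKM and only 6 reached 10 FPKM.

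A fold change of such a gene is limited by how many reads the control held. Set against a ceiling of 3 counts per F1 library, the mean CF1 level was 10.4 to 274 times as high, with a median of 28.8. For the 33 genes with any count in F1, the ratio of CF1 to F1 was 20.9 to 1240, with a median of 135. By edgeR's quasi-likelihood fit, 38 of the 41 genes passed the filter of a mean of 1 FPKM in CF1 or F1, and all 38 of these were called down-regulated, which required a change of 2-fold or more and a false discovery rate of 0.05 or less. Over all 20621 genes tested, 19.9% were called down-regulated and 44.0% in either direction. The rule used this same contrast, so nothing is read from the difference between the shares. The log2 fold changes of these 38 genes lay between -10.43 and -4.26 with a median of -7.07, and the median was -6.54 with the genes at 0 set at their bound. The genes outside the filter were GRMZM2G127431 (OFP29), GRMZM2G420823 and GRMZM2G099097 (CER1), and without the filter all 41 genes were called, where 15.5% of 29383 genes were.

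The most abundant of the 41 genes by count was glu1 (GRMZM2G016890), a beta-glucosidase. Enzymes of this group release active compounds from stored glucosides, and in maize they are known for freeing the defence compound DIMBOA and for acting on cytokinin glucosides. Glu1 had 2, 0 and 0 counts in F1, against 592, 321 and 390 counts in CF1. Its FPKM was 0.0200 ± 0.0346 (SD, n = 3) in F1 and 14.7 ± 3.90 (SD, n = 3) in CF1. The ratio of CF1 to F1 counts was 1240 (343 to 10250), and the log2 fold change was -9.95 (SE 0.44), or -12.20 without F1 replicate 1, which held both of its counts. The gene was thus moderately expressed in every control leaf and nearly unread after heat.

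Its namesake glu2 (GRMZM2G008247), the other maize beta-glucosidase listed, went the other way. Glu2 had 24068, 26954 and 26118 counts in F1, against 1460, 2376 and 1406 counts in CF1. Per length, its level was 887 ± 51.8 FPKM (SD, n = 3) in F1 and 66.2 ± 20.8 FPKM (SD, n = 3) in CF1. The groups did not overlap, and glu2 was called up-regulated (log2 fold change 2.95, SE 0.21, edgeR with Benjamini-Hochberg adjustment over 20621 genes, adjusted p = 9.00e-07), as were 24.1% of the genes tested. In FPKM, glu2 was higher than glu1 in every library, heat or control. Reads that fit both genes could be assigned in ways the sources used here do not describe, so the levels of such close relatives carry that uncertainty.

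A gene with the symbol TPS3 (GRMZM2G064406) had 0 counts in each F1 library, against 128, 25 and 163 counts in CF1. In maize this symbol is shared by terpene synthases, which make volatile defence compounds, and by trehalose-phosphate synthases, which make a sugar signal, and the name table does not say which is meant. With 3 counts per F1 library as the ceiling, TPS3 was at least 68.5-fold lower in F1 with TMM scaling and at least 39.0-fold lower by library totals. Replicate 2 of CF1 stood low, at 0.960 FPKM beside 4.54 and 6.71 FPKM in replicates 1 and 3.

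The nearest gene before TPS3 with a matched ID, in the gene order of the NAM-5.0 assembly of B73, carries the symbol TPS2 (GRMZM2G046615). TPS2 had 11, 1 and 5 counts in F1, against 2154, 849 and 2347 counts in CF1. Its level was 0.200 ± 0.181 FPKM (SD, n = 3) in F1 and 69.1 ± 33.1 FPKM (SD, n = 3) in CF1. It was called down-regulated (log2 fold change -9.21, SE 0.59, edgeR adjusted p = 4.92e-07; -10.07 without F1 replicate 1) and missed the rule through 2 of the 3 F1 libraries. The CF1 libraries ranked alike for both neighbours, with replicate 2 lowest and replicate 3 highest, and TPS2 was higher than TPS3 in FPKM in each of them.

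Genes with a TPS symbol were mostly lower after heat. The symbol may pool both kinds of enzyme, so these genes are not read as a family. Of 19 such genes in the table, 11 were tested, 10 were called down-regulated (90.9%, against 19.9% of all tested genes) and 0 up-regulated. The 10 include the silenced TPS3, whose call the rule nearly fixed. With library totals the calls were 9 down and 0 up. Their median log2 fold change was -3.92, against 0.05 over all tested genes. After the neighbours TPS3 and TPS2 the lowest were TPS8 (GRMZM2G038153) with -6.50 (SE 0.18, edgeR adjusted p = 1.40e-08) and tps1 (GRMZM2G049538) with -5.91 (SE 0.26, edgeR adjusted p = 5.16e-08). The symbols TPS3 and TPS2 are each carried by another gene as well. That TPS3 (GRMZM2G118462) kept 10.8 to 13.0 FPKM in F1, against 94.3 to 113 FPKM in CF1, with -3.91 (SE 0.13, edgeR adjusted p = 1.99e-08). That TPS2 (GRMZM2G123277) had -1.78 (SE 0.25, edgeR adjusted p = 1.25e-04), and was not called with totals, at -0.98. The gene not called was TPS5 (GRMZM2G099860), at -0.47 (SE 0.11) with TMM and 0.33 with totals.

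**Figure D2:**
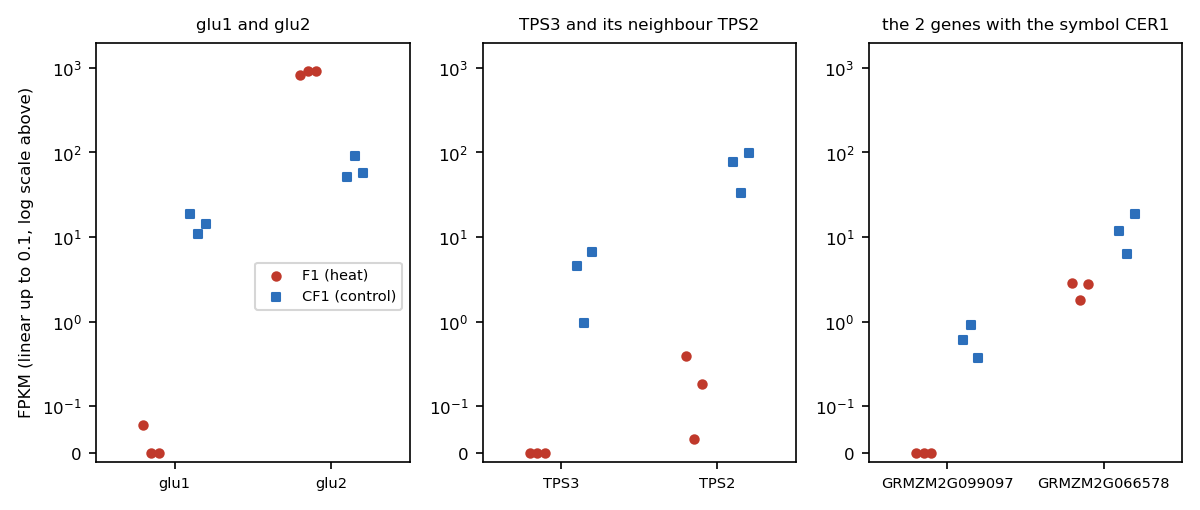
FPKM per library of glu1 and glu2, of TPS3 and its neighbour TPS2, and of the 2 genes with the symbol CER1, with F1 (heat) as red circles left of CF1 (control) as blue squares. The axis is linear up to 0.1 FPKM and logarithmic above. Glu2 reached 827 to 921 FPKM in F1 where glu1 was at 0.06 FPKM or less, TPS2 was nearly as low as TPS3 in F1, and the second CER1 gene kept 1.78 to 2.86 FPKM in F1.

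Glossy15 (gl15, also EREB55, GRMZM2G160730) encodes a transcription factor of the AP2 group that is known to keep the leaf epidermis juvenile, including its wax, and is a target of the microRNA miR172. It had 0, 1 and 1 counts in F1, against 49, 101 and 28 counts in CF1. The ratio of CF1 to F1 was 170 (46.2 to 1410), and the log2 fold change was -7.08 (SE 0.74), or -6.47 without CF1 replicate 2. Its level in CF1 was 1.88 ± 1.19 FPKM (SD, n = 3), with the highest value in replicate 2 and the lowest in replicate 3.

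CER1 in Arabidopsis is a core enzyme of the formation of wax alkanes, and the name table gives that symbol to a pair of maize genes. The silenced one, GRMZM2G099097, had 0 counts in each F1 library, against 30, 42 and 16 counts in CF1. It was at least 18.4-fold lower in F1 (10.6-fold by totals), but with 0.627 ± 0.271 FPKM (SD, n = 3) in CF1 it was the gene with the lowest FPKM of the 41. The other, GRMZM2G066578, had 109, 68 and 103 counts in F1, against 439, 218 and 599 counts in CF1. It was called down-regulated (log2 fold change -3.12, SE 0.37, edgeR adjusted p = 3.78e-05) and kept a measurable level of 2.46 ± 0.594 FPKM (SD, n = 3) in F1, against 12.3 ± 6.19 FPKM (SD, n = 3) in CF1.

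The wider set of glossy genes and CER1 moved in both directions. Of 7 genes in the table, 6 were tested, 3 were called down-regulated and 2 up-regulated, with the same calls by library totals. The 3 include the silenced gl15, whose call the rule nearly fixed. Over all tested genes 19.9% were called down and 24.1% up with TMM. Gl1 (GRMZM2G114642), which takes part in wax synthesis, was lower with -2.15 (SE 0.15, edgeR adjusted p = 8.11e-07). Gl8b (GRMZM2G087323), a reductase of fatty acid elongation, was higher with 1.84 (SE 0.17, edgeR adjusted p = 6.67e-06), as was gl4a (GRMZM2G003501), a condensing enzyme of the same elongation, with 1.16 (SE 0.30, edgeR adjusted p = 5.69e-03). Gl4a was not called without CF1 replicate 1 or 3, at 0.99 and 0.90. Glossy2 (GRMZM2G098239) was not called, at -0.02 (SE 0.11) with TMM and 0.78 with totals. This list was drawn up after gl15 and CER1 were seen among the 41.

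MYBR95 (GRMZM2G115070) belongs to the MYB-related transcription factors, a family that in plants includes clock components and regulators of epidermal cell fate. It had 0, 0 and 1 counts in F1, against 38, 16 and 46 counts in CF1. The ratio of CF1 to F1 was 190 (33.4 to 7595), and the log2 fold change was -7.02 (SE 0.82), or -8.53 without F1 replicate 3, which held its only count. In the family, 18 of 23 genes were tested. With TMM 8 were called down-regulated (44.4%, against 19.9% of all tested genes) and 1 up-regulated, where 24.1% of all tested genes were. The 8 include MYBR95, whose call the rule nearly fixed. With library totals 5 were called down and 6 up, where 1899 and 9286 of all 20621 tested genes were. Among the others called down, MYBR100 (GRMZM5G833032) had -3.39 (SE 0.16, edgeR adjusted p = 8.77e-08). MYBR115 (GRMZM2G049378) had -4.33 (SE 0.82, edgeR adjusted p = 9.01e-04), but -2.73 without CF1 replicate 2, which held 370 of its counts beside 54 and 48 in replicates 1 and 3. The gene called up with TMM was MYBR32 (GRMZM2G088524) with 1.09 (SE 0.15, edgeR adjusted p = 1.14e-04), and it was not called without CF1 replicate 3, at 0.99. MYBR45 (GRMZM2G415077), the family member next to MYBR95 in the NAM-5.0 order, had 0 counts in all 6 libraries.

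OFP29 (GRMZM2G127431) belongs to the ovate family, whose members are known in Arabidopsis as transcriptional repressors of growth. It had 3, 0 and 2 counts in F1, against 19, 15 and 23 counts in CF1, and lay at the edge of the rule on both sides. The ratio of CF1 to F1 was 21.7 (8.78 to 69.4). Of 11 ovate genes in the table only OFP8 (GRMZM2G026927) and OFP17 (GRMZM2G055737) were tested, and both were higher in F1, with log2 fold changes of 1.45 (SE 0.27, edgeR adjusted p = 7.39e-04) and 2.26 (SE 0.71, edgeR adjusted p = 1.58e-02). OFP17 was not called without F1 replicate 3 (2.06) or CF1 replicate 1 (1.98) and had 3.87 without CF1 replicate 3.

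The family of ethylene response and AP2 factors (EREB), to which gl15 is assigned by its second name, was called down-regulated about as often as all tested genes. Of 34 genes, 19 were tested. With TMM 3 were called down-regulated (15.8%, against 19.9% of all tested genes) and 6 up-regulated, where 24.1% of all tested genes were. The 3 include gl15, whose call the rule nearly fixed. With totals 1 was called down and 8 up, where 1899 and 9286 of all 20621 tested genes were. The others called down with TMM were EREB14 (GRMZM2G018398) with -1.32 (SE 0.11, edgeR adjusted p = 3.28e-06) and EREB98 (GRMZM2G052720) with -1.25 (SE 0.22, edgeR adjusted p = 5.68e-04), and neither was called with totals, at -0.52 and -0.44. EREB98 was also not called without CF1 replicate 3, at -0.98.

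**Figure D3:**
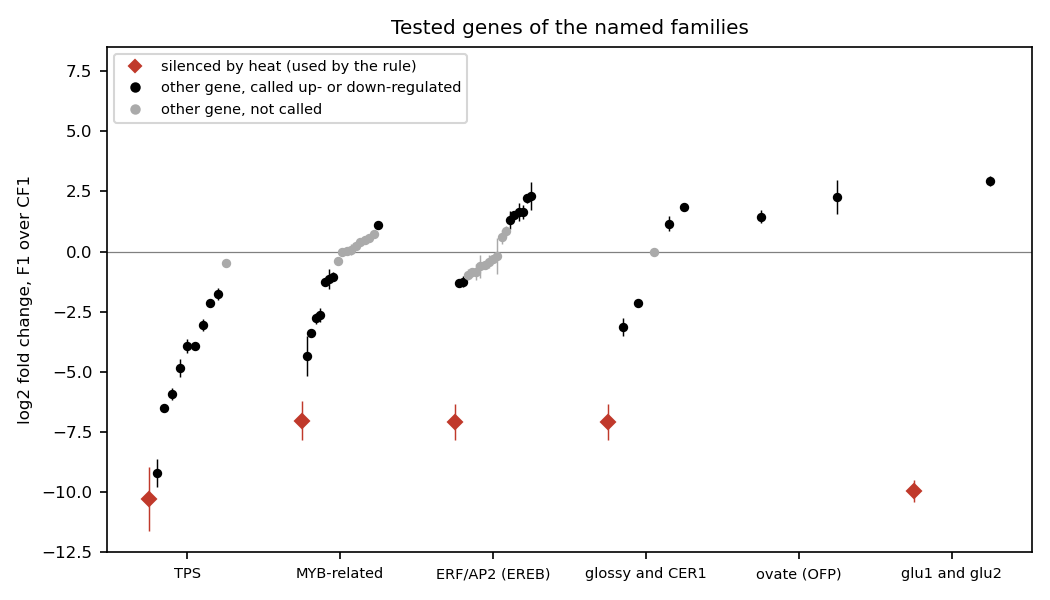
Log2 fold change of F1 over CF1 (edgeR, TMM) with its standard error for every tested gene of the families or shared symbols that hold a named silenced gene. Red diamonds are genes silenced by heat, black circles other genes called and grey circles other genes not called. OFP29 and the silenced CER1 gene were not tested and are not drawn, and gl15 appears both among the EREB and among the glossy genes. The TPS genes lie from -10.29 to -0.47, while the MYB-related, EREB and glossy genes reach both sides of 0.

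The remaining genes carry no descriptive name in the table used. The highest of them by count was GRMZM2G074672, with 2, 0 and 0 counts in F1, against 195, 465 and 322 counts in CF1. Its ratio of CF1 to F1 was 935 (258 to 7730). AC208915.3_FG010 had 1, 0 and 0 counts in F1, against 172, 250 and 167 counts in CF1, a ratio of 1121 (201 to 44370). With glu1 these had the highest ratios of the 33 genes that had any count in F1, and each had at most 2 counts in F1 over all libraries.

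GRMZM2G149273 had 1, 0 and 2 counts in F1, against 216, 186 and 147 counts in CF1, with a ratio of 348 (119 to 1695). Its control libraries agreed best of the 41 genes, the highest being 1.21 times the lowest after scaling. GRMZM2G475536 had 3, 3 and 2 counts in F1, against 295, 52 and 393 counts in CF1, with a ratio of 176 (88.9 to 409.5), and its control libraries agreed least, with a factor of 8.54. GRMZM2G456226 had the highest FPKM, 0.127 ± 0.110 (SD, n = 3) in F1 and 32.5 ± 8.83 (SD, n = 3) in CF1. Its counts were 1, 1 and 0 in F1, against 185, 105 and 168 in CF1, and its exonic length of 355 bases was the shortest of all 41. It is named for this level, a choice made with its values known.

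The next genes by count were again unnamed. GRMZM2G078465 had 2 counts in each F1 library, against 202, 102 and 176 counts in CF1, and its even remainder in F1 gave a ratio of CF1 to F1 of 152 (69.5 to 417). AC209050.3_FG003 had 0, 3 and 1 counts in F1, against 91, 43 and 179 counts in CF1. GRMZM2G428027 had 0, 1 and 0 counts in F1, against 145, 41 and 121 counts in CF1, and its ratio of 584.5 (104 to 23160) was the fourth highest. GRMZM2G050412 had 3, 0 and 2 counts in F1, against 103, 42 and 134 counts in CF1. In these 4 genes CF1 replicate 2 was the lowest control library.

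Lower down, AC214817.3_FG007 had 2, 1 and 1 counts in F1, against 69, 54 and 96 counts in CF1. GRMZM2G028736 had 0, 3 and 0 counts in F1, against 70, 53 and 83 counts in CF1. GRMZM2G105189 had 0, 0 and 1 counts in F1, against 71, 49 and 46 counts in CF1. Their counts in F1 were scattered over the 3 libraries with no library high throughout. GRMZM2G165387 had 3, 1 and 3 counts in F1, against 66, 74 and 18 counts in CF1. GRMZM2G420823 had 2, 1 and 3 counts in F1, against 41, 19 and 47 counts in CF1. With an exonic length of 3739 bases its mean was 0.723 FPKM in CF1, below the filter. The other 13 genes averaged 18.3 to 47.3 counts in CF1 and had 1 to 6 counts in total in F1, with ratios of CF1 to F1 of 20.9 to 213 and a median of 90.1. Their CF1 means were 1.18 to 4.82 FPKM, so each was a lowly expressed gene in control leaves.

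Besides TPS3 and CER1, 6 genes had 0 counts in every F1 library, and they are named because they complete that count. GRMZM2G125196 had 129, 29 and 189 counts in CF1 and was at least 75.7-fold lower in F1 (43.0-fold by totals). AC196795.4_FG009 had 45, 85 and 48 counts in CF1 and was at least 37.8-fold lower in F1 (21.8-fold by totals). GRMZM2G117706 had 61, 37 and 47 counts in CF1 and was at least 30.6-fold lower in F1 (17.6-fold by totals). For GRMZM2G563190, GRMZM2G127846 and GRMZM2G057116 the bounds were 28.8-fold, 19.8-fold and 17.8-fold lower in F1, or 16.65-fold, 11.4-fold and 10.2-fold by totals, from CF1 means of 46.3, 31.0 and 27.3 counts. The bound followed the control count, so these values rank how deeply each gene was read in CF1 and not how far it was reduced.

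At the edge of the rule, GRMZM2G026143 had 1, 0 and 2 counts in F1, against 15, 18 and 16 counts in CF1, and GRMZM2G410767 had 1, 2 and 0 counts in F1, against 20, 32 and 15 counts in CF1. Just outside it, GRMZM2G311036 had 4, 0 and 3 counts in F1, against 343, 113 and 385 counts in CF1. GRMZM2G131315 had 4, 2 and 4 counts in F1, against 157, 76 and 195 counts in CF1, and GRMZM2G141320 had 1, 1 and 0 counts in F1, against 163, 14 and 204 counts in CF1. The genes listed just outside were thus no less reduced than those listed at the edge, and most of their CF1 counts were higher. Other genes that missed the rule by 1 count are only counted here, so this does not describe all genes just outside. Of the 41 genes, 11 had an F1 library at exactly 3 counts and 4 had a CF1 library at exactly 15. A further 13 genes missed the rule by 1 count in F1 and 2 genes by 1 count in CF1.

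The rule was also applied to a pair of replicate numbers, and the genes it chose were then read in the replicate left out. No source pairs these numbers across treatments, and the genes that passed in both steps were by construction the same 41 each time. Only the genes that failed are informative. The shares, medians and numbers lower in F1 given here take in the 41, which fixes them in large part. Replicates 2 and 3 chose 67 genes, of which 41 (61.2%) met both thresholds in replicate 1. All 67, the 26 that failed included, had a lower scaled count in F1. The median count in replicate 1 was 2 in F1, against 49 in CF1. Replicates 1 and 3 chose 80 genes, of which 41 (51.2%) met both thresholds in replicate 2 and 79 were lower in F1, with medians of 1 in F1, against 22.5 in CF1. Replicates 1 and 2 chose 57 genes, of which 41 (71.9%) met both thresholds in replicate 3 and all 57 were lower in F1, with medians of 1 in F1, against 30 in CF1. The highest counts in the held-out F1 libraries were 15, 13 and 12. Of all genes with at least 15 counts in a CF1 library, 0.905%, 0.824% and 0.992% had at most 3 in the F1 library of the same number. The shares of the chosen genes hold the 41 by construction and are not read against these. In replicates 1, 2 and 3, 26, 39 and 16 of the chosen genes failed a threshold, which gives a measure of how far membership in the 41 depends on single libraries.

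Whether a gene could be chosen depended on its control level. Of the genes that met the control condition, 23 of 2777 (0.828%) with a mean of 15 to 50 counts in CF1 were silenced, 7 of 2767 (0.253%) with 50 to 100 counts, 11 of 7673 (0.143%) with 100 to 500 counts and 0 of 3904 above. Above 500 counts, 315 genes (8.07%) were at least 8-fold lower in F1 and still had too many reads left for the rule. In the lowest class 90 genes (3.24%) were that much lower. The 41 genes were therefore mostly of low control counts, and the genes with the highest control counts could be strongly reduced without meeting the rule.

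With the groups exchanged, the same thresholds took 425 genes, which had at least 15 counts in each F1 library and at most 3 in each CF1 library. They were 2.13% of the 19960 genes that had at least 15 counts in each F1 library. On counts scaled by TMM to a common library size, the rule took 58 genes, and 173 with the groups exchanged. Genes that appeared under heat by this measure thus outnumbered those that vanished on both scales. The factor was 10.4 on raw counts and smaller on scaled counts (173 against 58), so its size depended on the scaling.

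**Figure D4:**
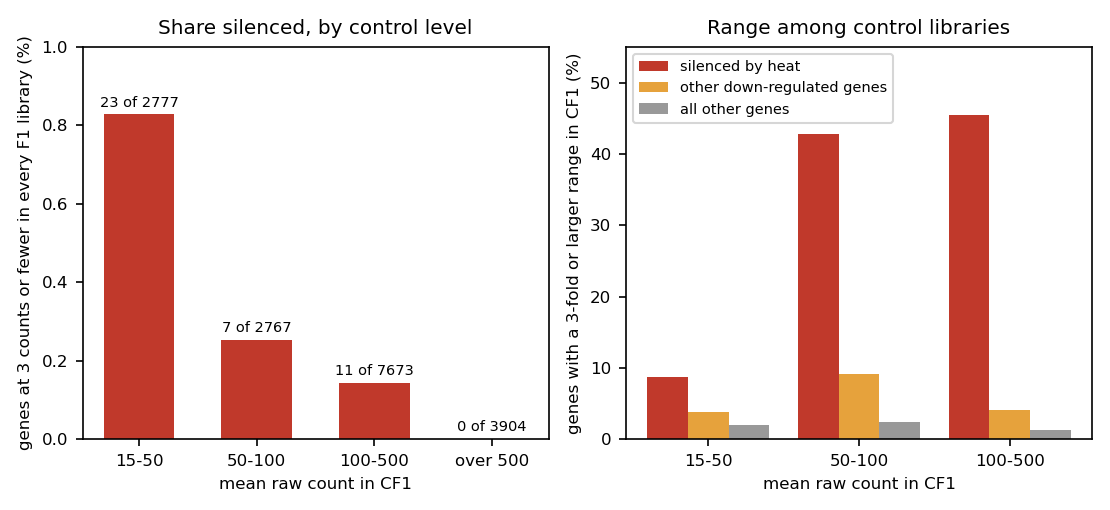
Left, share of the genes with at least 15 counts in each CF1 library that had at most 3 counts in each F1 library, by mean CF1 count. Right, share of genes whose highest CF1 library was at least 3 times the lowest after TMM scaling, for genes silenced by heat (red), other down-regulated genes (orange) and all other genes (grey). The silenced share is 0.828% in the lowest class and 0 above 500 counts, and from 50 counts up 42.9% and 45.5% of the silenced genes varied by 3-fold or more among control leaves.

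The silenced genes differed among the control leaves themselves. The rule set a lower limit for each CF1 library but otherwise left their spread free. After scaling, the highest CF1 library was 1.21 to 8.54 times the lowest, with a median of 2.04, against a median of 1.32 over 12606 other genes of the same range of mean counts. The factor reached 3 for 10 of the 41 genes (24.4%), against 1.71% of those other genes. Counting noise is larger at low counts, so classes of control level were compared. At 15 to 50 counts the factor reached 3 for 2 of 23 silenced genes (8.70%), 3.80% of other down-regulated genes and 2.00% of all other genes. At 50 to 100 counts it did so for 3 of 7 silenced genes (42.9%), 9.11% of other down-regulated genes and 2.46% of all others. At 100 to 500 counts it did so for 5 of 11 (45.5%), 4.08% and 1.28% of these groups. The silenced genes were the most variable set in each class, which is given as a description over few genes.

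The variation had a common direction. Of the 10 genes, 8 were lowest in CF1 replicate 2 and highest in replicate 3, among them GRMZM2G475536, TPS3, GRMZM2G125196 and MYBR95. The other two, gl15 and GRMZM2G165387, were highest in replicate 2 and lowest in replicate 3, and RefSeq classes GRMZM2G165387 as a transcribed pseudogene. Among 254 other genes that varied as much, 56.7% had the first order and 28.7% the second. Replicates 2 and 3 were also the least alike pair of CF1 libraries over all genes, with a mean chi-square per gene of 25.8, where the other pairs of replicates had 9.57 to 11.9. What set these control leaves apart was not tested. Without CF1 replicate 2 the rule took 58 genes, and without CF1 replicate 3 it took 51.

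**Figure D5:**
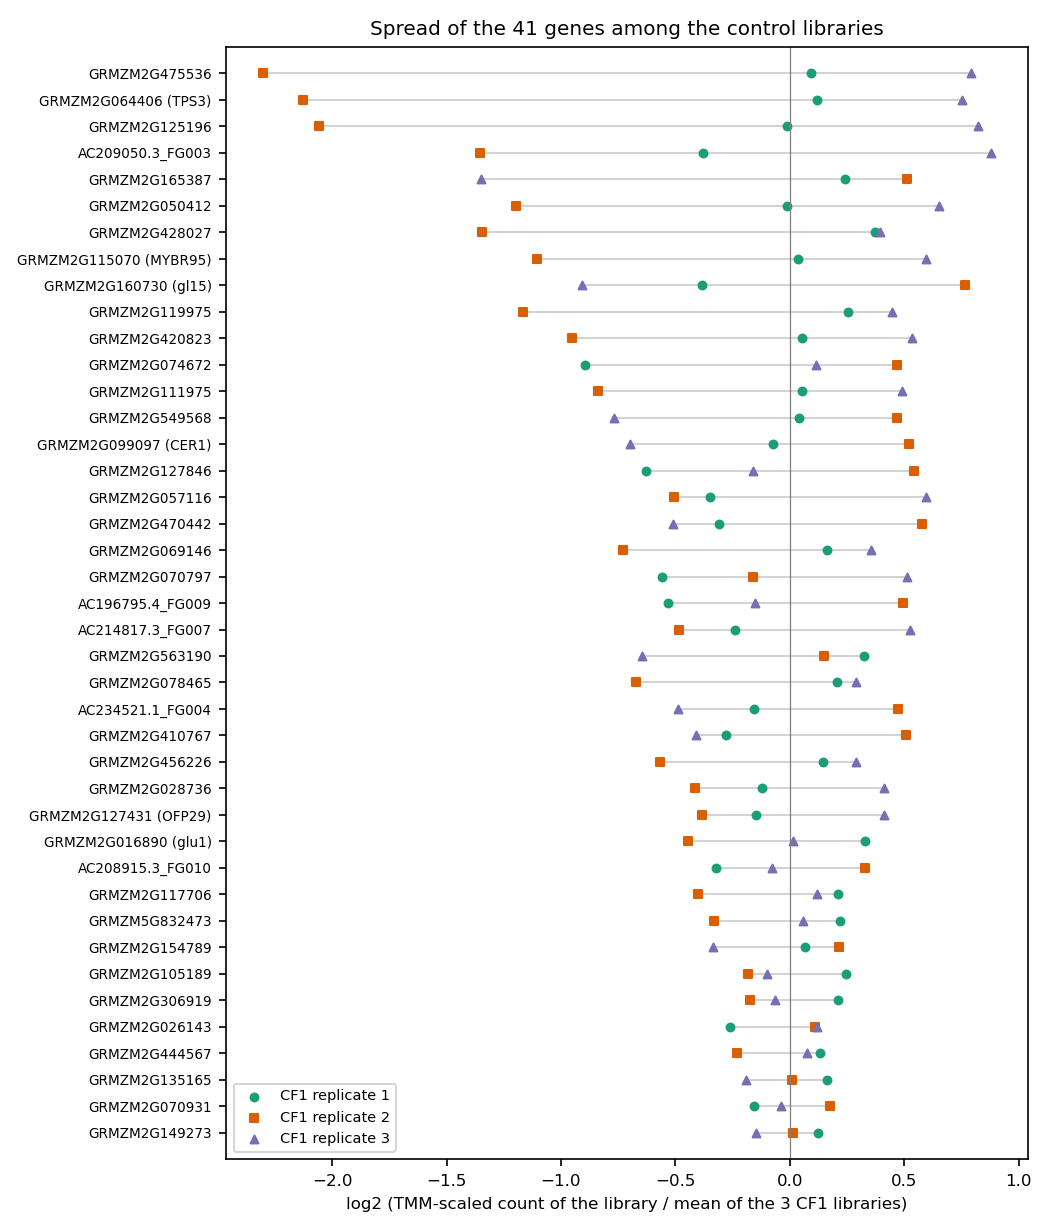
Count of each of the 41 genes in CF1 replicates 1 (green circles), 2 (orange squares) and 3 (violet triangles), TMM-scaled and given as log2 of its ratio to the mean of the 3 libraries. Genes are ordered by the factor between the highest and the lowest library, which ran from 8.54 at the top to 1.21 at the bottom, and replicate 2 was the lowest library for 23 of the 41.

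In what the rule did not use, the silenced genes were shorter than all other genes of like level. They were close in length to other down-regulated genes, so the shortness was not particular to them. Their annotation differed from that of other genes in both directions. Their median exonic length was 1393 bases, against 1873 bases for the 12606 other genes and 1481 bases over the whole table. In the classes of 15 to 50, 50 to 100 and 100 to 500 counts the medians were 1274, 1548 and 1635 bases for silenced genes. They were 1292, 1624 and 1796 bases for other down-regulated genes, and 1682, 1788 and 1993 bases for all other genes. A RefSeq entry was matched for 23 of 41 (56.1%), against 70.8% of the other genes and 47.9% of the table. A symbol of a gene family was carried by 6 of 41 (14.6%), against 8.44% of the other genes and 6.78% of the table. IDs made from a clone name, as in AC208915.3_FG010, were carried by 5 of 41 (12.2%), against 3.24% of the other genes and 7.68% of the table.

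The 23 genes that could be placed in the NAM-5.0 gene order were scattered. None was the neighbour of another, and the closest were 158 genes apart. Of their 46 nearest neighbours with a matched ID, 33 were tested. With TMM 11 were called down-regulated (33.3%, against 19.9% of all tested genes), 5 up-regulated and 17 not called. The share with library totals was not counted and may differ. Among the 11, GRMZM2G137546 and GRMZM2G062429 lay at the threshold with -1.0. With totals GRMZM2G123277 was not called, at -0.98, while GRMZM2G019183 stayed called, at -2.25. TPS2 beside TPS3 was the most reduced neighbour. It was followed by GRMZM2G154881 beside GRMZM2G057116, with 59, 57 and 53 counts in F1, against 1338, 506 and 2304 counts in CF1 (log2 fold change -5.59, SE 0.55, edgeR adjusted p = 9.85e-06, and -4.86 without CF1 replicate 3), and by GRMZM2G135027 beside GRMZM2G563190, with a log2 fold change of -3.78 (SE 0.15, edgeR adjusted p = 3.88e-08). In each of these cases the silenced gene was at 0 in F1 while its neighbour kept reads in every F1 library.

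Of 23 lists of pathways and transcription factor families, 20 held no silenced gene, and each of the TPS, MYB-related and EREB lists held 1. The lists took in 3 of the 41 silenced genes (7.32%), against 1.65% of the other genes that met the control condition and 1.35% of the table. Over the 23 lists, 103 of 331 tested genes (31.1%) were called down-regulated with TMM, against 19.9% of all tested genes. With library totals 72 were, where 9.21% of all tested genes were. Both counts include the 3 silenced genes, whose calls the rule nearly fixed. Light harvesting and photosystem genes were called down for 12 of 13 tested, with a median log2 fold change of -4.21, and jasmonate genes for 16 of 30, with a median of -1.34. With library totals these were 10 down and 1 up, and 14 down and 7 up. In the first list the gene not called with TMM (0.31) and called up with totals (1.11) was psat1 (GRMZM2G300801). It was placed there by its symbol alone. Cytokinin response and oxidase genes were called down for 7 of 12 and up for 0 with TMM, and down for 4 and up for 1 with totals. No gene of these 3 groups met the rule. Heat shock protein genes were called up for 10 of 13, with a median of 6.37, and MYB genes for 9 of 15, with a median of 1.20. Over all tested genes 24.1% were called up.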

How the data were processed

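RNA of the third leaf was purified as poly(A) RNA and sequenced as paired reads. Per the labels, the authors aligned clean reads to B73 RefGen_v3 with HISAT2 2.0.1, counted reads per gene with HTSeq 0.6.1 and list DESeq 1.10.1. The deposited counts are raw. The deposited FPKM values are the counts per exonic length and per library total. The 6 libraries of the hybrid were used. The 24 other columns of single libraries carry names that match no label, so the parental lines were not analysed here.

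Genes whose mean FPKM reached 1 in either group were tested with edgeR 4.0.16 (R 4.3.3), by the quasi-likelihood test on counts with TMM scaling, and called when they changed 2-fold or more with an adjusted p (Benjamini-Hochberg) of 0.05 or less. The SE is the absolute log2 fold change divided by the square root of F. DESeq2 1.42.0 was an alternative. Ratios of counts have exact 95% intervals from the summed counts. A bound uses 3 counts per F1 library. The fit was tested on simulated data with 200 of 20621 genes changed by a log2 of 2. It recovered 200 of them and made 11 false calls. The changed genes were taken from well-read ones, so the low counts and large changes of the silenced genes were not covered. Mean chi-square per gene between replicates was 9.57 to 25.8, so replicates were taken as separate libraries. Replicate numbers name biological replicates and no source pairs them across treatments.

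The members and lists were chosen with earlier results of these data known. Named were genes with a family symbol, the 5 with the highest mean CF1 count, the 3 with the widest CF1 range, and the 3 nearest the thresholds on either side, others being named as such. Names are RefSeq symbols (assembly Zm-B73-REFERENCE-NAM-5.0) and were found for 18908 gene IDs. The table holds no product names, so lists were matched by symbol, and 3 were added after the members were seen. No promoter or protein sequence was used here, so the planned motif search was not run. Coordinates of that assembly are not printed, since the build differs.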

Additional observations from a re-analysis of the deposited data

How the results depend on the processing

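The number of genes silenced by heat (41) followed the thresholds. It was 17 with at least 30 counts in each CF1 library, 8 with 0 counts and 74 with at most 5 counts in each F1 library, and 425 with the groups exchanged, which was added after the data were seen. Without each library or replicate number in turn it was 43 to 80. With library totals, 1899 genes were called down-regulated and 9286 up-regulated, against 4102 and 4963 with TMM, and the up-regulated share of the calls was 83.0%, against 54.7%. The median bound was 88.2 with the floor over the whole F1 group and 16.65 with totals, against 28.8, and the median log2 fold change of the members was -6.33 with totals. All 38 tested members stayed called in each of 11 alternatives, and without the filter all 41 were. The replicate number as a block gave 8948 called genes, against 9065, and changed no call among the members. Since the rule used this same contrast, the calls of the members were nearly fixed in advance. Nothing is read from their staying the same. Deviations of samples with the same number correlated by 0.0272, -0.0157 and 0.0138, and not every sample correlated best with its own number. With 3 libraries per group this check cannot exclude a pairing, and no source states one. For genes at 0 in F1, the depth of the control sets how large a bound can be shown. Fits of the other named genes without each library were also added after the data were seen.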
